A study of Brassica napus with 36 samples.

Results

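The direct freezing response was compared between the Brassica napus (rapeseed) varieties HX17 and HX58 by RNA sequencing of leaves. Seedlings grew for 6 weeks at 20° in the light and 16° in the dark, and were then frozen at -4° for 12 h without prior cold (FB, the groups HX17_FB and HX58_FB) or kept for 12 h more at the growth temperatures (Mock B, the groups HX17_MB and HX58_MB). The third leaf from the top was taken at the end of the treatment. The comparison used 12 of the series' 36 libraries, 3 in each of the 4 groups. For every gene the log2 response to freezing (FB minus MB) was taken within each variety, and the response of HX17 was subtracted from that of HX58. This difference of responses, the interaction of variety and freezing, was tested for 59265 genes, and 946 of them were called, which meant a difference of at least 2-fold at an adjusted p under 0.005.

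The other groups used here were HX17_MA and HX58_MA, the mock groups of the acclimated arm, and HX17_FA and HX58_FA. MA seedlings grew for 4 weeks, then 14 days and then 12 h, all at 20° in the light and 16° in the dark, where MB seedlings had 6 weeks and then 12 h at these temperatures. FA seedlings grew for 4 weeks and spent 14 days at 4° before 12 h at -4°. Both varieties are early-maturing, and the study chose them for unequal cold tolerance. The study's wording on replicates is not uniform, and nothing in the labels ties libraries to separate plants, so p-values measure the spread between these libraries, which may be technical.

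Plants that meet frost without prior cold switch on several sets of genes. Calcium enters the cytosol on cooling and is read by calmodulin-like proteins and calcium-dependent kinases. CBF/DREB1 transcription factors are then induced and bind the promoters of COR genes, whose products protect membranes and chloroplasts, while the ZAT, WRKY and ERF families hold fast-responding regulators that also answer touch, wounding and microbes. These facts come from Arabidopsis, and the rapeseed genes below carry the names of their closest Swiss-Prot proteins. Because rapeseed holds an A and a C subgenome, most Arabidopsis genes have several rapeseed copies, and reads may have been shared between near-identical copies.

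The 12 libraries held 32745597 to 59290772 gene counts. Pearson's r of log2 CPM (counts scaled to a common library total) was 0.964 to 0.986 within groups and 0.717 to 0.9004 between groups. Root markers (30 loci) summed to at most 0.283 CPM in any library and shoot meristem and flower markers (23 loci) to at most 0.723 CPM, while leaf mesophyll markers (22 loci) summed to between 23772 and 65658 CPM. Markers of phloem companion cells (21 loci) summed to 491 to 1247 CPM in HX17_FB, against 145 to 277 CPM in HX17_MB, 219.6 to 386 CPM in HX58_MB and 191 to 331 CPM in HX58_FB. None of the 11 phloem loci tested was called in the interaction. The best expressed of them, loci matched to SUC2 and PMA3, all had estimates below 0, from -2.40 to -1.52 (adjusted p 0.0164 to 0.143). Of 71 tested guard cell loci, 2 were called, both negative, where 0.577% of all genes were negative. Guard cell markers (88 loci) summed to 694 to 1104 CPM in HX17_FB and 564 to 659 CPM in HX17_MB. In HX58 they summed to 695 to 760 CPM in MB and 444 to 729 CPM in FB. No tested locus of leaf mesophyll (20), epidermis and trichomes (15) or xylem (18) was called. The part of phloem or guard cell RNA in the results was not tested. In such bulk samples, fewer cells of a type and less RNA per cell cannot be told apart.

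The unfrozen HX17 leaves of the compared arm stood apart from the other unfrozen HX17 leaves. HX17_MB differed from HX17_MA in 544 of 58025 genes (0.938%), with 433 higher (0.746%) and 111 lower (0.191%) in HX17_MB. HX58_MB differed from HX58_MA in 177 genes (0.305%), with 58 higher (0.100%) and 119 lower (0.205%). The results below use the MB controls of the design, and for most genes described in detail the value with MA in place of MB is given as well. The MA comparison kept the same FB libraries, so the 2 estimates are not independent.

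Freezing alone changed a large share of the genes in both varieties. It raised 8493 genes (14.3%) and lowered 8741 genes (14.7%) in HX58, 29.1% of the 59265 tested in either direction. In HX17 it raised 7370 (12.4%) and lowered 8022 (13.5%), 26.0% in all. The varieties themselves differed in 9155 genes in MB (15.4%), with HX58 the higher in 7.31% of the tested genes and HX17 in 8.13%, and in 8311 genes in FB (14.0%). Against these numbers the interaction was called for 1.60% of the genes. The difference was positive, so that HX58 responded more strongly upwards or HX17 more strongly downwards, for 604 genes (1.02%), and negative for 342 genes (0.577%). The median difference over all tested genes was 0.00 on the log2 scale.

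The count of called genes depended on single libraries. Leaving out 1 library at a time gave 391 to 1104 called genes, and the count fell by more than 1.5 times without HX17_FB 3 (615), HX17_MB 1 (518), HX17_MB 2 (483), HX17_MB 3 (463), HX58_FB 2 (462), HX58_MB 1 (391) or HX58_MB 2 (461). Of the 604 positive genes, 258 were called in every one of these 12 fits, as were 83 of the 342 negative genes.

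Most positive differences had a called response in 1 variety only. A response that was not called may still be a change short of the thresholds. Of the 604 genes, 227 rose in HX58 and were not called in HX17, 198 fell in HX17 and were not called in HX58, and 94 rose in HX58 and fell in HX17. A further 72 rose in both, 12 fell in both and 1 was called in neither. Of the 342 negative genes, 149 fell in HX58 and were not called in HX17. A rise was called in HX17 alone for 119, and 26 fell in HX58 and rose in HX17. Another 20 fell in both, 15 rose in both and 13 were called in neither. Opposite called responses were therefore seen for 120 of the 946 genes.

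**Figure D1:**
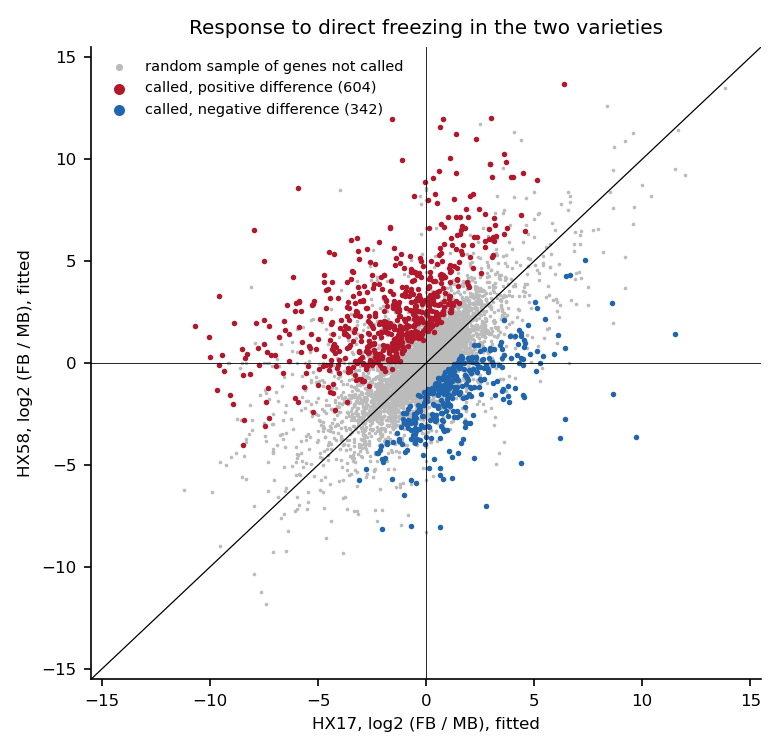
Log2 response to freezing (FB minus MB) in HX17 (x axis) against HX58 (y axis), 1 point per gene. The 604 genes with a positive difference lie above the diagonal and the 342 with a negative difference below it, over a random sample of genes that were not called.

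For 402 of the 604 positive genes, HX58 and HX17 differed in MB and were not called different in FB. A positive difference of this kind has HX17_MB above HX58_MB by its construction. Their median level was 15.2 CPM in HX17_MB, 7.31 in HX17_FB, 1.17 in HX58_MB and 7.90 in HX58_FB. The median difference between the varieties thus went from -3.61 on the log2 scale in MB to 0.37 in FB. A further 103 positive genes differed in FB only, 75 in both conditions and 24 in neither. The negative genes were spread otherwise, with 111 that differed in MB only, 155 in FB only, 51 in both and 25 in neither.

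The 402 genes were chosen through their high HX17_MB level, so a lower level in another control group is favoured by that choice, and the following values are a description. Their median level was 3.04 CPM in HX17_MA, against the 15.2 CPM of HX17_MB, and 206 of the 401 tested were called higher in HX17_MB than in HX17_MA, with 0 called lower. In HX58 the medians were 1.67 CPM in MA and 1.17 CPM in MB, with 0 called higher in MB and 10 called lower. With MA in place of MB, the median difference of the 396 genes tested went from 3.86 to 1.14, and 10 of them were called. The 103 positive genes that differed in FB only went from a median of 3.05 to 2.35, with 11 called. The 342 negative genes went from -2.61 to -1.98, with 47 called. Over all genes, the MA controls gave 161 calls (0.272% of 59174), 81 positive (0.137%) and 80 negative (0.135%), of which 78 were among the 946.

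**Figure D2:**
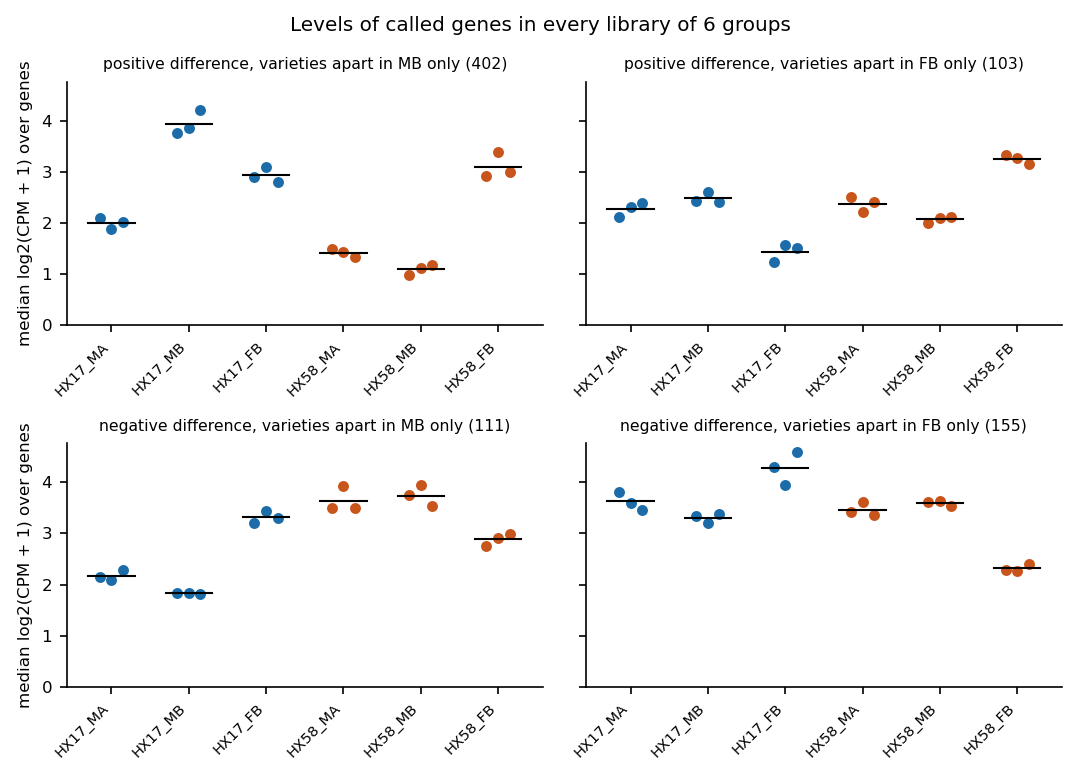
Median log2(CPM + 1) over the genes of a class (y axis) in each library of 6 groups (x axis), with a point per library and a bar at the group mean, for positive and negative genes that differed in MB only or in FB only. Among the 402 positive genes apart in MB only, the libraries sit at 3.77 to 4.21 in HX17_MB, 1.89 to 2.09 in HX17_MA and 0.98 to 1.17 in HX58_MB, and at 2.81 to 3.09 in HX17_FB and 2.92 to 3.38 in HX58_FB.

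Calcium signalling held the most called genes of the 23 lists examined. Of 405 tested genes, 37 had a positive difference (9.14%, against 1.02% of all genes) and 1 a negative difference, and 31 of the 38 differed between the varieties in MB only. The list's median difference was 0.20. Without a single library the positive count lay between 18 (without HX58_MB 1) and 36. With MA controls 0 were positive and 1 was negative, where 0.137% and 0.135% of all genes were. A count of 0 with MA controls, here and in the lists below, is near those shares and says little about a list. The members came from several steps, with the sensors CML45, CML30, CML38 and PBP1, the calcineurin B-like protein CNBL1 and the kinases CPK28, CPK32 and CPK5. Of the 6 tested CML45 loci 4 were positive, as were 4 of 5 PBP1 loci and 4 of 6 CPK28 loci.

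The calmodulin-like sensor CML45 (BnaA02g29610D, chromosome A02, 21588176 to 21588739) gave 9.87, 10.5 and 7.86 CPM in HX17_MB and 0.672, 0.9503 and 0.927 CPM in HX17_FB. In HX58 it gave 0, 0.0391 and 0 CPM in MB and 1.19, 1.51 and 0.8403 CPM in FB. It thus fell in HX17 and rose in HX58, and the frozen groups overlapped at a low level. The 3 HX58_MB libraries held 2 reads in all, so the rise in HX58 was 76.7 (95% counting interval 20.9 to 638)-fold. The difference of responses was 9.49 ± 0.68 (SE, adjusted p = 2.14e-05), a fitted value that depends here on the near-absent HX58_MB group. With MA controls it was 2.87 (adjusted p = 0.128).

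PBP1 (BnaC01g19450D), a calcium-binding partner of the kinase PINOID in Arabidopsis, showed the same pattern at a higher level. It gave 42.8, 41.6 and 41.2 CPM in HX17_MB, 8.86, 22.3 and 14.95 in HX17_FB, 0.587, 0.469 and 0.419 in HX58_MB and 13.3, 20.4 and 8.14 in HX58_FB. The frozen groups overlapped and the MB groups did not. The difference was 6.26 ± 0.53 (SE, adjusted p = 6.09e-05). With MA controls, where HX17_MA averaged 1.81 CPM, it was 0.51 (adjusted p = 0.705).

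WRKY factors, which regulate defence and stress genes, had 19 positive genes among 182 tested (10.4%, against 1.02% of all genes) and 0 negative genes. The median difference of the list was 0.60, and 17 of the 19 differed in MB only. All 6 tested WRKY33 loci and all 4 tested WRKY53 loci were among them, with WRKY46, WRKY40 and WRKY70 at 2 loci each and WRKY11, WRKY18 and WRKY30 at 1 each. Each of the 6 WRKY33 loci rose in HX58, and 4 of them fell in HX17. The count was 13 to 19 without single libraries (13 without HX17_MB 3 or HX58_MB 1). It was 0 with MA controls, where 0.137% of all genes were positive.

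WRKY33 (BnaC03g21360D, chromosome C03, 11540511 to 11542476) was at 71.9, 81.7 and 95.6 CPM in HX17_MB and 29.04, 50.9 and 25.04 CPM in HX17_FB. HX58 went the other way, from 6.35, 5.38 and 6.31 CPM in MB to 45.4, 35.7 and 33.5 CPM in FB. All HX17_MB libraries were the highest of the 12, all HX58_MB libraries the lowest, and the frozen groups overlapped. The difference was 3.91 ± 0.36 (SE, adjusted p = 8.91e-05). HX17_MA gave 16.9, 10.3 and 14.4 CPM and HX58_MA 18.7, 20.7 and 16.9 CPM, and with these controls the difference changed sign to -0.32 (adjusted p = 0.696). WRKY53 (BnaC01g15640D) had a difference of 4.26 ± 0.40 (SE, adjusted p = 9.29e-05), and 0.62 with MA controls.

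ERF factors, the ethylene-responsive family, moved in both directions. Of 254 tested, 17 were positive (6.69%) and 5 negative (1.97%), against 1.02% and 0.577% of all genes. The list median was 0.77. The positive members were all 4 tested ERF104 loci, 5 of 7 loci matched to ERF11, 3 of 4 matched to ERF5, 2 RAP2-4 loci and 1 each of EF103, EF105 and ERF21 in Swiss-Prot naming. The negative members were 3 of 6 ERF070 loci, ERF060 and CRF6. The positive count was 11 (without HX58_FB 2) to 19 when single libraries were left out. With MA controls 1 was positive and 1 negative, where 0.137% and 0.135% of all genes were.

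ERF104 (BnaC07g31350D, chromosome C07, 35474351 to 35475121), an activator of defence genes in Arabidopsis, was nearly lost from HX17 on freezing. It gave 29.3, 25.3 and 36.96 CPM in HX17_MB and 0, 0.0288 and 0.0257 CPM in HX17_FB, where the 3 libraries held 2 reads in all. The fall was 1989 (95% counting interval 550.2 to 16432)-fold. In HX58 it rose from 0.294, 0.235 and 0.179 CPM to 0.417, 1.32 and 0.7802 CPM, both far below HX17_MB. The fitted difference was 12.50 ± 0.73 (SE, adjusted p = 6.92e-06), and 8.21 (adjusted p = 0.0103) with MA controls, where HX17_MA averaged 0.846 CPM.

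The repressor ERF11 (BnaA07g08440D) rose in both varieties and further in HX58. HX17 went from 6.11, 9.86 and 7.27 to 33.5, 56.2 and 37.5 CPM, and HX58 from 0.294, 0.293 and 0.419 to 55.3, 71.2 and 62.3 CPM. Every FB library was above every MB library. The difference was 5.11 ± 0.38 (SE, adjusted p = 2.21e-05), and 2.30 (adjusted p = 0.0223) with MA controls, where HX17_MA averaged 0.847 CPM.

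An ERF070 locus (BnaCnng17120D) went the other way. It gave 2.24, 2.099 and 4.07 CPM in HX17_MB and 98.6, 11.5 and 79.2 CPM in HX17_FB, with 3.68, 6.49 and 3.32 in HX58_MB and 2.12, 0.944 and 1.5 in HX58_FB. The difference was -6.06 ± 0.88 (SE, adjusted p = 0.00148), and the call was lost in 3 of the 12 fits that left out a library. With MA controls it was -4.28 (adjusted p = 0.0771). HX17_FB 2 lay far below the other HX17_FB libraries.

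The ICE-CBF pathway list held 62 tested genes, of which 8 were positive (12.9%, against 1.02% of all genes) and 0 negative. The list's median difference was 0.45. None of the 8 was a CBF. They were 4 of 6 loci of the zinc finger protein ZAT12, 3 of 5 loci of ZAT10, and CAMTA3, a calmodulin-binding activator of CBF genes in Arabidopsis. The count was 3 (without HX58_MB 2) to 9 when single libraries were left out. It was 0 with MA controls, where 0.137% of all genes were positive.

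ZAT12 (BnaA02g06780D, chromosome A02, 3227932 to 3228405) was one of the positive genes that differed in frozen leaves. Unfrozen levels were 0.151, 0.201 and 0.197 CPM in HX17_MB and 0.0678, 0.117 and 0.0598 CPM in HX58_MB. Frozen leaves reached 1.56, 1.04 and 2.01 CPM in HX17 and 37.8, 62 and 44.9 CPM in HX58. It rose in both, and every HX58_FB library lay above every HX17_FB library. The difference was 6.06 ± 0.58 (SE, adjusted p = 0.000105), and 4.56 (adjusted p = 0.12) with MA controls. The called ZAT12 loci were not alike. BnaA03g09250D also differed in FB only (4.22, and 2.43 with MA controls). BnaA02g06790D (6.76, and 0.07 with MA controls) and BnaA10g12780D (3.95, and 0.83 with MA controls) differed in MB only.

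ZAT10 (BnaA08g18790D), a repressor of stress genes, followed the other pattern. HX17_MB held 44.2, 46.1 and 48.9 CPM and HX58_MB 1.33, 0.841 and 2.06 CPM, while HX17_FB held 46.5, 197 and 182 CPM and HX58_FB 141, 155 and 83.01 CPM. Frozen leaves of the varieties overlapped and unfrozen leaves did not. The difference was 4.89 ± 0.66 (SE, adjusted p = 0.000919), against 1.16 (adjusted p = 0.328) with MA controls.

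The CBF/DREB1 genes themselves rose in both varieties with no called difference. All 16 tested loci of 17 rose in HX58 and in HX17, and the lowest adjusted p of the interaction was 0.0197. Their summed level was 0.787 to 2.36 CPM in the MB libraries, 418 to 558 CPM in HX17_FB and 644 to 797 CPM in HX58_FB. The frozen ranges did not overlap, with HX58_FB the higher. DREB1C (BnaC07g39680D) gave 0.424, 0.144 and 0.281 CPM in HX17_MB, 3.15, 8.61 and 11.97 in HX17_FB, 1.56, 1.45 and 1.52 in HX58_MB and 80.2, 93.6 and 57.1 in HX58_FB. It was higher in HX58 before and after freezing, and its difference of responses was 0.87 ± 0.66 (SE, adjusted p = 0.452). Where MB groups held no read, the rise was a lower bound, as for DREB1D (BnaA10g07630D), which rose at least 3578-fold in HX58 against a floor of 3 reads over the 3 libraries.

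COR genes and other protective proteins gave few calls. Of 53 tested COR, dehydrin and LEA genes 1 was positive (1.89%) and 2 were negative (3.77%), against 1.02% and 0.577% of all genes, with a median of -0.43. Without single libraries 0 to 2 were positive and 0 to 3 negative, and 8 of the 12 fits had 0 negative. With MA controls 0 were positive and 3 negative, where 0.137% and 0.135% of all genes were. All 5 tested COR15 loci, whose products stabilise chloroplast membranes, rose in both varieties, all 5 with a difference below 0, and 1 was called. COR15B (BnaA03g56650D) went from 12.95, 9.63 and 8.904 to 1065, 1108 and 638 CPM in HX17 and from 33.1, 37.6 and 24.1 to 691, 535 and 625 CPM in HX58. The unfrozen HX58 leaves started higher. The difference was -2.19 ± 0.37 (SE, adjusted p = 0.00339), lost in 10 of the 12 fits without a library, and -1.36 (adjusted p = 0.109) with MA controls.

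KIN2 (BnaAnng37980D), a small stress-induced protein, rose from 17.5, 18.5 and 29.1 to 2514, 2080.3 and 1931 CPM in HX17 and from 63.98, 59.7 and 37.2 to 928, 1099 and 1236 CPM in HX58. HX58 was above HX17 in every unfrozen library and below it in every frozen one. The difference was -2.31 ± 0.38 (SE, adjusted p = 0.00318) and was lost in 9 of the 12 fits without a library, while with MA controls it was -3.12 (adjusted p = 0.00165). The positive member, a Lea5 locus (BnaC03g73200D), fell in HX17 from 65.3, 81.3 and 89.8 to 9.55, 8.898 and 12.7 CPM and rose in HX58 from 0.745, 1.31 and 3.71 to 7.29, 34.4 and 7.102 CPM, a difference of 6.03 ± 0.89 (SE, adjusted p = 0.00164), and of 3.19 (adjusted p = 0.0244) with MA controls.

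**Figure D3:**
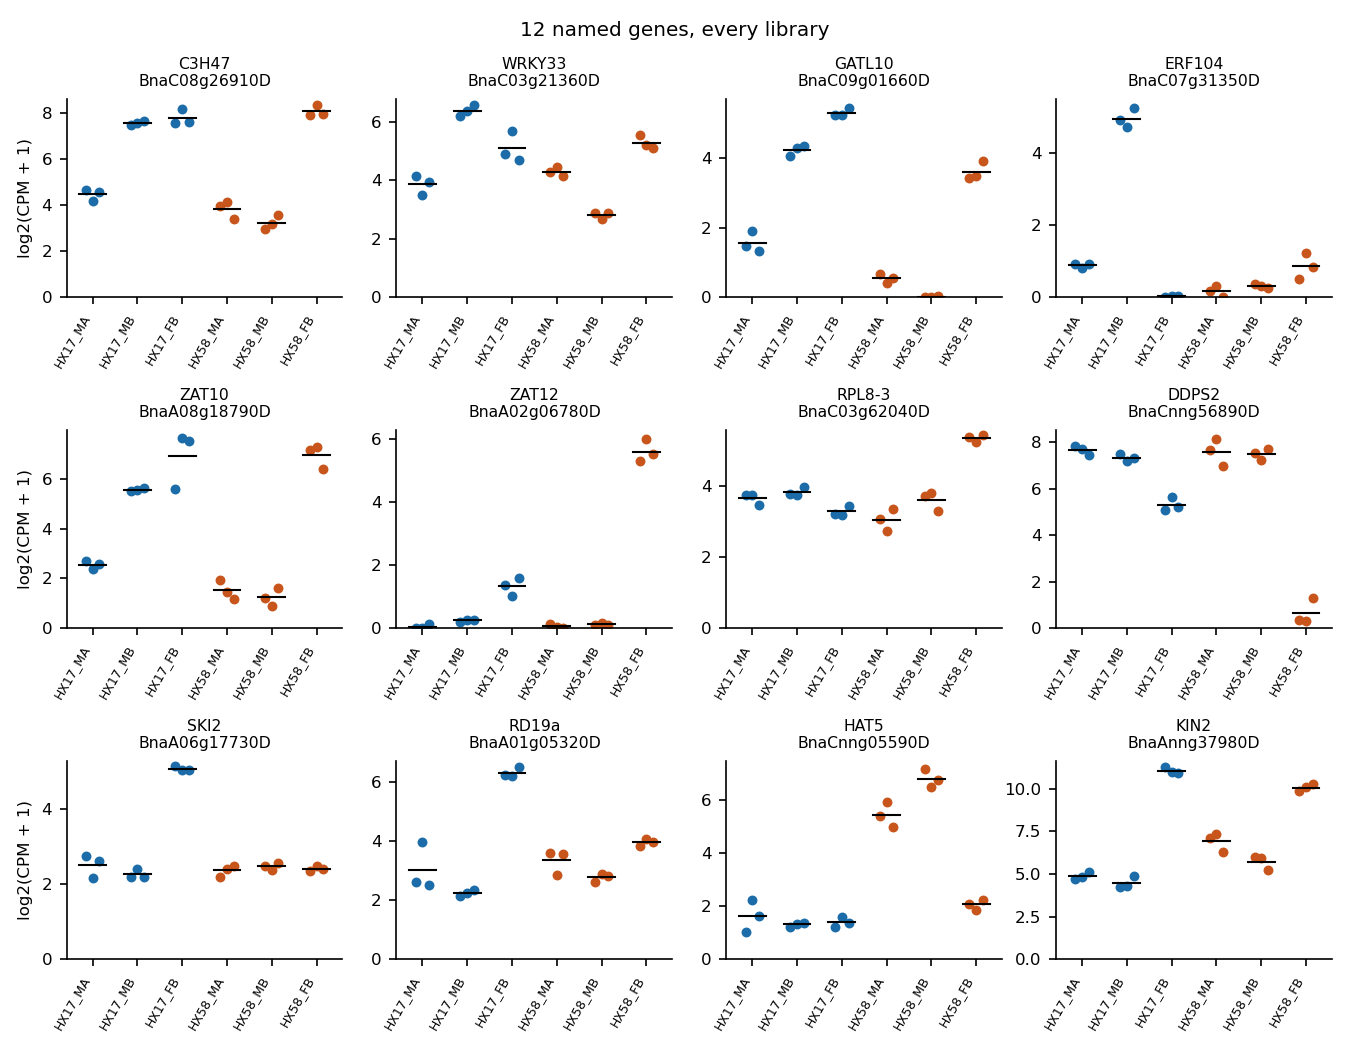
Level of 12 named genes as log2(CPM + 1) (y axis) in each library of 6 groups (x axis), with 1 panel per gene, a point per library and a bar at the group mean. WRKY33, C3H47 and ZAT10 differ between the varieties in MB and overlap in FB, whereas SKI2, RD19a and ZAT12 are close in MB and apart in FB.

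Cell wall genes had 13 positive members among 231 tested (5.63%, against 1.02% of all genes) and 0 negative members. Of the 13, 11 differed in MB only. The list median was 0.25. The 13 were all 4 tested XTH18 loci, 4 of 5 XTH22 loci, XTH24, 3 pectin methylesterase loci and an expansin-like gene. XTH enzymes cut and rejoin xyloglucan, and XTH22 is the classic touch gene TCH4 of Arabidopsis. The count was 5 to 13 without single libraries (5 without HX17_MB 3, HX58_FB 2 or HX58_MB 2). It was 0 with MA controls, where 0.137% of all genes were positive.

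XTH18 (BnaC07g42520D) rose in both varieties. HX17 went from 5.48, 9.001 and 6.04 to 64.8, 35.7 and 62.2 CPM, and HX58 from 0, 0.0196 and 0 to 33.6, 50.1 and 48.2 CPM, so that the frozen groups overlapped. HX58_MB held 1 read in all, and the ratio in HX58 was 5667 (95% counting interval 1017 to 223850.0). The fitted difference was 9.03 ± 0.67 (SE, adjusted p = 2.21e-05), and 5.84 (adjusted p = 0.0155) with MA controls. A second XTH18 locus (BnaC01g08120D) fell in HX17 from 9.38, 10.6 and 15.7 to 0.106, 0 and 0 CPM and was at least 11.2-fold higher in HX58_FB than in HX58_MB, which held no read.

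GATL10, a probable galacturonosyltransferase-like enzyme that the lists did not include, was positive at all 4 tested loci. At BnaC09g01660D (chromosome C09, 910413 to 911474) HX17 had 15.9, 18.6 and 19.4 CPM in MB and 37.1, 37.3 and 42.5 CPM in FB. HX58 had 0, 0 and 0.0299 CPM in MB, 1 read in all, and 9.88, 10.1 and 14.2 CPM in FB. The transcript was thus close to absent from unfrozen HX58 leaves and present in unfrozen HX17 leaves. The fitted difference was 8.94 ± 0.53 (SE, adjusted p = 6.92e-06). With MA controls, 1.76, 2.77 and 1.502 CPM in HX17 and 0.574, 0.326 and 0.465 CPM in HX58, it was 0.36 (adjusted p = 0.674). At BnaA06g31630D and BnaC07g25020D, HX58_MB held no read, and HX58_FB was at least 495-fold and at least 385-fold higher.

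The zinc finger protein C3H47 (BnaC08g26910D, chromosome C08, 28128808 to 28130433) was the abundant example of this pattern. It gave 178, 187 and 201 CPM in HX17_MB, 188, 291 and 194 in HX17_FB, 6.71, 8.02 and 10.7 in HX58_MB and 241, 323 and 243 in HX58_FB. It rose in HX58 by 4.99 on the log2 scale, and the estimate in HX17 was 0.25 (adjusted p = 0.391). The difference was 4.74 ± 0.34 (SE, adjusted p = 2.14e-05). Unfrozen leaves of the MA groups held 24.3, 16.9 and 22.4 CPM in HX17 and 14.6, 16.4 and 9.49 CPM in HX58, and with them the difference was 0.91 (adjusted p = 0.164).

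Hormone genes gave few calls. Of 153 tested genes of abscisic acid (ABA) synthesis and signalling, 2 were positive and 2 negative (1.31% each, against 1.02% and 0.577% of all genes), and both positive genes were loci of ABA 8'-hydroxylase 3, which breaks ABA down. At BnaCnng57040D it gave 9.84, 3.45 and 7.58 CPM in HX17_MB, 10.3, 11.4 and 32.1 in HX17_FB, 0, 0.0196 and 0 in HX58_MB and 23.9, 34.3 and 18.2 in HX58_FB, a fitted difference of 9.86 ± 1.06 (SE, adjusted p = 0.000207) that rests on 1 read in HX58_MB. With MA controls it was 0.77 (adjusted p = 0.751). The negative genes were another ABA hydroxylase locus, ABAH2 (BnaC04g40260D, -3.20, and -1.21 with MA controls), and the receptor PYL1 (BnaC09g19620D, -2.18, and -2.20 with MA controls).

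The 3 tested loci of SnRK2E/OST1, the ABA-activated kinase that acts above the CBFs in Arabidopsis, were not called in either response or in the interaction, where all 3 estimates were below 0 and the lowest adjusted p was 0.0428. The best expressed of them (BnaAnng41460D) gave 4.03, 3.13 and 2.81 CPM in HX17_MB, 4.16, 6.94 and 4.84 in HX17_FB, 5.96, 10.5 and 5.74 in HX58_MB and 6.67, 7.21 and 6.06 in HX58_FB. Every HX58_MB library lay above every HX17_MB library, and the frozen groups overlapped.

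Among 95 tested jasmonate genes 1 was positive (1.05%) and 2 were negative (2.11%), against 1.02% and 0.577% of all genes. The positive one was MYC2 (BnaC08g07580D), the main transcription factor of jasmonate signalling, with 36.4, 40.1 and 39.4 CPM in HX17_MB, 17.7, 36.7 and 22.7 in HX17_FB, 5.08, 4.79 and 3.62 in HX58_MB and 27.1, 36.1 and 16.9 in HX58_FB. It rose in HX58 and was not called in HX17, a difference of 3.16 ± 0.42 (SE, adjusted p = 0.000867). With MA controls, where HX17_MA averaged 4.92 CPM, it was 0.57 (adjusted p = 0.533). The negative ones were both LOX3, a lipoxygenase of jasmonate synthesis, at BnaC08g37760D (-3.09, lost in 7 of the 12 fits without a library) and BnaA09g45010D (-2.47). TIFY10A, a repressor that jasmonate removes, had 6 tested loci, 4 of which rose in HX58 and 2 in HX17. None was called in the interaction, and the lowest adjusted p was 0.0419. At BnaC08g18640D, HX17 went from 1.03, 2.53 and 1.07 to 11.8, 4.64 and 7.05 CPM and HX58 from 0.248, 1.11 and 1.47 to 24.01, 29.2 and 28.1 CPM. Auxin response genes had 1 positive (0.420%) and 3 negative (1.26%) members among 238, against the same shares of all genes.

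Starch and sugar genes gave only negative calls, 5 of 123 tested (4.07%, against 0.577% of all genes), with a list median of -0.53. The 5 were 3 of the 4 tested loci of beta-amylase 3 (BAM3), which degrades starch in chloroplasts, the amylase AMY2 and the sucrose-phosphate synthase SPS4. BAM3 at BnaA03g42940D went from 66.1, 71.3 and 54.9 to 357, 336 and 251 CPM in HX17, while HX58 held 504, 472 and 543 CPM in MB and 515, 656 and 716 CPM in FB. Every HX58 library lay above every HX17 library. The difference was -1.98 ± 0.29 (SE, adjusted p = 0.00168), lost in 9 of the 12 fits without a library, and -0.38 (adjusted p = 0.66) with MA controls. The list's calls numbered 0 to 6 without single libraries (0 in 7 of the 12 fits). They numbered 0 with MA controls, where 0.272% of all genes were called.

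Cytosolic ribosomal proteins shared a small shift rather than many calls. Of 845 tested genes, 20 were positive (2.37%, against 1.02% of all genes) and 0 negative. The estimate was above 0 for 773 of the 845, against 29649 of all 59265 tested genes, and the list median was 0.76. An uneven split was not particular to this list. Estimates were above 0 for 31 of 166 photosystem genes and 26 of 123 starch and sugar genes, and the ERF median was 0.77. Freezing raised 735 of the ribosomal protein transcripts in HX58 and 548 in HX17, and lowered 16 and 17. The median log2(CPM + 1) of the 845 genes was 4.77 to 5.15 in HX17_MB, 5.91 to 6.21 in HX17_FB, 4.22 to 4.43 in HX58_MB and 6.15 to 6.46 in HX58_FB. HX58 thus started lower in every unfrozen library, and the frozen groups overlapped.

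With MA in place of MB the median was 1.02, against 0.04 over all genes, with 18 positive and 0 negative genes, 8 of them among the 20. In the acclimated arm (FA against MA) the median difference was 0.49, against 0.04 over all genes, with 727 of 834 genes above 0 and 0 called. Both values rest on the same MA libraries, in which the median log2(CPM + 1) was 4.13 to 4.63 in HX58 and 5.06 to 5.46 in HX17, so they are not separate support. In the acclimated arm the genes did not rise as in FB. HX58_FA stood at 4.46 to 4.66, and HX17_FA at 5.02, 4.27 and 5.39, with HX17_FA 2 apart from the others. The number of calls itself was less steady, from 3 (without HX58_MB 1) to 16 when single libraries were left out, while the median stayed between 0.66 and 0.89. Members of the family share sequence, so their reads may not be independent.

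RPL8-3 (BnaC03g62040D, chromosome C03, 51276386 to 51277801), a protein of the large subunit, gave 12.7, 12.6 and 14.9 CPM in HX17_MB, 8.402, 8.12 and 9.99 in HX17_FB, 12.3, 13.1 and 8.91 in HX58_MB and 41.1, 37.4 and 42.9 in HX58_FB. HX58_FB stood above all other libraries. The difference was 2.42 ± 0.26 (SE, adjusted p = 0.0002), and 2.83 (adjusted p = 0.00095) with MA controls. RPL28-2 (BnaA08g13440D) had a difference of 2.05 ± 0.26 (SE, adjusted p = 0.000555), from 9.82, 7.28 and 9.06 to 40.8, 39.6 and 41.6 CPM in HX58.

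**Figure D4:**
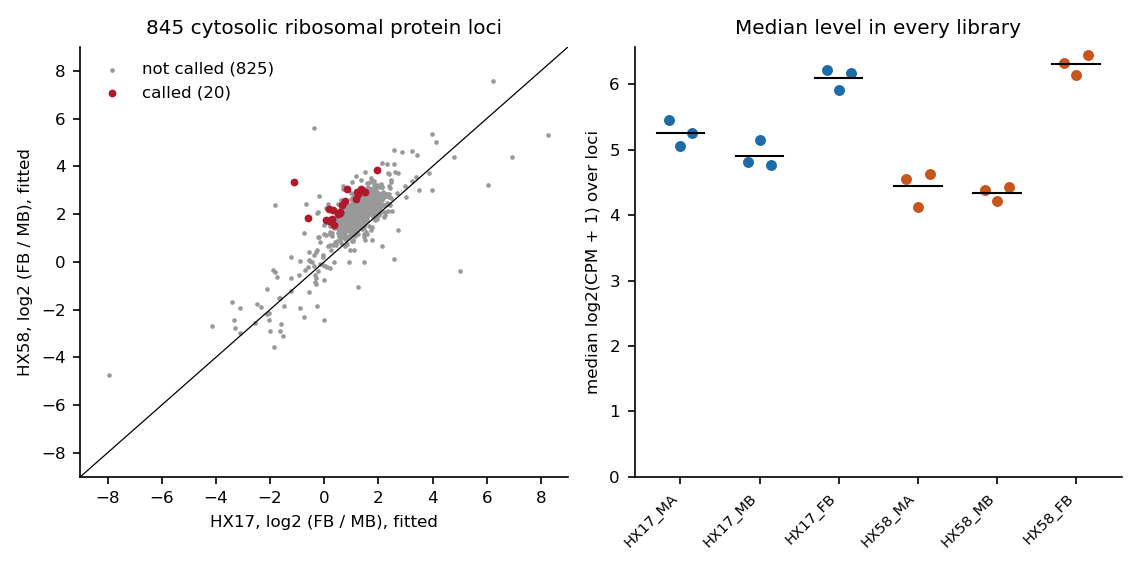
Left, log2 response of each of the 845 tested cytosolic ribosomal protein genes in HX17 (x axis) and HX58 (y axis), with the 20 called genes in red and the diagonal of equal responses. Right, median log2(CPM + 1) of these genes in each library, with a bar at the group mean. Most points, 773 of 845, lie above the diagonal, and HX58_MB (4.22 to 4.43) lies below HX17_MB (4.77 to 5.15).

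Chloroplast ribosomal proteins had 0 positive and 1 negative gene among 163 (0.613%, against 0.577% of all genes). That gene, matched to the 30S protein S6 alpha (BnaA09g12200D), rose in HX17 from 3.93, 5.38 and 1.94 to 17.4, 11.3 and 9.75 CPM and fell in HX58 from 233, 123 and 339 to 31.9, 22.3 and 25.5 CPM. The difference was -4.91 ± 0.57 (SE, adjusted p = 0.000349), and it was called with MA controls as well (-4.49, adjusted p = 0.000206). Photosystem and light-harvesting genes had 1 positive call (0.602%, against 1.02% of all genes) and 0 negative calls among 166. The list median was -0.38, and -0.52 to -0.02 without single libraries. Estimates were above 0 for 31 of the 166, and freezing lowered 79 in HX58 and 46 in HX17. The called gene went against the list median. It was a photosystem II 5 kDa protein (BnaC01g32320D, 2.22), and the call was lost in 9 of the 12 fits without a library.

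Clock genes had 1 positive (0.935%) and 2 negative (1.87%) calls among 107, against 1.02% and 0.577% of all genes. The clock repressor APRR5 (BnaC09g04380D) rose in HX58 from 0.0903, 0.215 and 0.0598 to 4.68, 6.73 and 3.98 CPM, while HX17 held 1.51, 2.07 and 2.08 CPM in MB and 1.93, 3.46 and 3.14 CPM in FB, a difference of 4.71 ± 0.57 (SE, adjusted p = 0.000459). RVE2 (BnaC06g12130D), a morning MYB factor, rose in both, from 2.72, 2.67 and 3.51 to 104, 104 and 80.3 CPM in HX17 and from 10.6, 10.5 and 10.02 to 77.5, 73.3 and 95.01 CPM in HX58, a difference of -2.04 ± 0.26 (SE, adjusted p = 0.000595), and -1.47 (adjusted p = 0.0643) with MA controls. CDF5 (BnaA07g24230D) was the other negative gene (-1.70, and -0.98 with MA controls).

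NAC factors had 9 positive genes (5.202%, against 1.02% of all genes) and 0 negative genes among 173, including 3 NAC94 and 3 NAC062 loci, with a median of -0.04. Without single libraries 6 to 10 were positive. With MA controls 0 were, against 0.137% of all genes, and the estimates of the 3 NAC062 loci were below 0. Pathogenesis-related proteins had 4 positive genes of 144 (2.78%), all glucanases or a chitinase-like protein. Their count was 0 (without HX58_MB 1) to 3 when single libraries were left out and 0 with MA controls.

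The remaining lists gave few calls. Heat shock factors and proteins had 2 positive genes of 160 (1.25%), HSFA8 (BnaC06g29140D, 2.61, and 1.13 with MA controls) and HSFB2A (BnaC03g52080D, 3.73, and 0.42 with MA controls). Antioxidant enzymes had 1 positive gene of 178 (0.562%), an iron superoxide dismutase of the chloroplast (BnaA06g26040D, 3.33). Membrane lipid genes had 1 of 69 (1.45%) and senescence genes 1 of 30 (3.33%), where the share of all genes was 1.02%. Without single libraries the antioxidant list had 1 to 6 positive and 0 to 7 negative genes. For glucosinolates (50 tested), flavonoids (50) and flowering time (24) the count was 0, and their lowest adjusted p values were 0.0103, 0.0545 and 0.00855. Their median differences were -0.31, -0.50 and -1.13, and 1.78, -0.05 and -0.86 with MA controls. The flowering time median was -1.29 to -0.41 without single libraries, and 7 of its 24 estimates were above 0. In all, 161 of the 946 called genes were in any of the 23 lists.

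**Figure D5:**
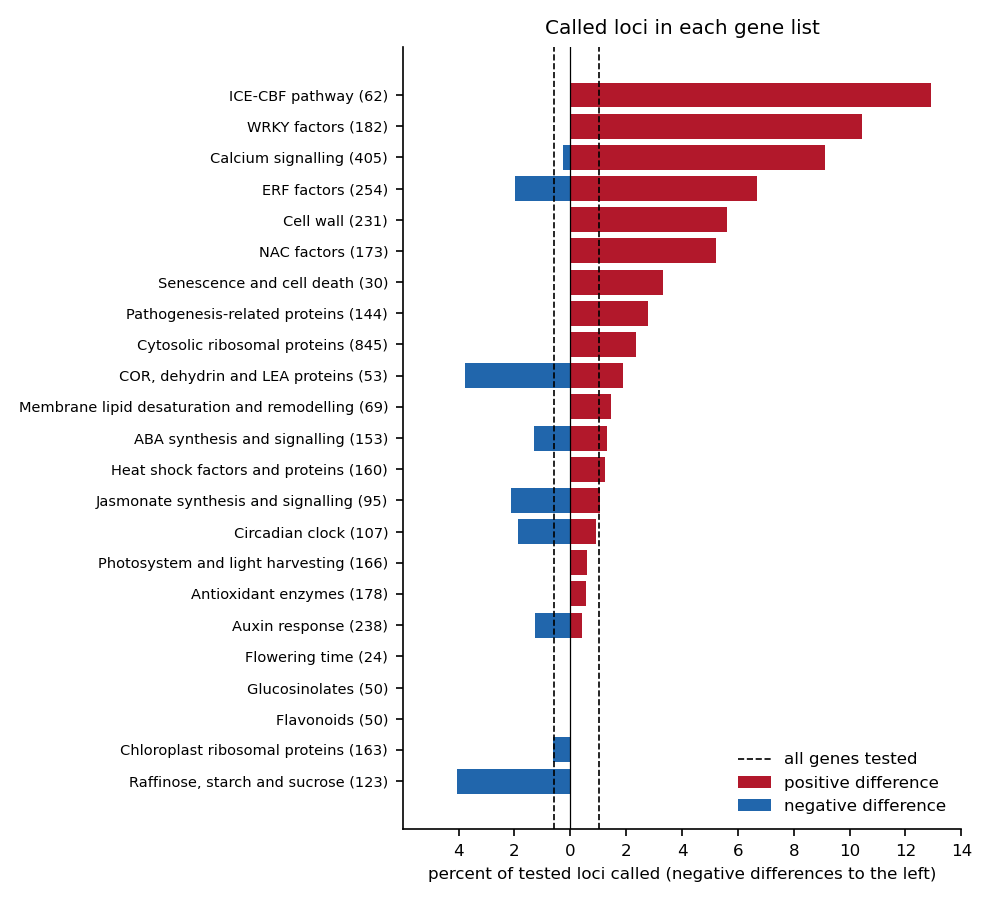
Percentage of the tested genes of each list (x axis, list size in brackets) with a positive called difference to the right and a negative one to the left, beside dashed lines at the 1.02% and 0.577% of all tested genes. The ICE-CBF, WRKY and calcium lists reach 12.9%, 10.4% and 9.14% to the right, and starch and sugar genes 4.07% to the left.

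Several negative genes rose more in HX17 than in HX58, and SKI2 and RD19a were those with the smallest p. SKI2 (BnaA06g17730D, chromosome A06, 10111705 to 10117815), an RNA helicase of the cytosolic exosome pathway, gave 3.51, 4.26 and 3.57 CPM in HX17_MB and 33.7, 31.7 and 31.7 CPM in HX17_FB. HX58 stayed between 4.03 and 4.87 CPM over its 6 libraries. The difference was -3.18 ± 0.23 (SE, adjusted p = 2.14e-05), and -2.73 (adjusted p = 0.00095) with MA controls. In the acclimated arm it was -1.88 (adjusted p = 0.00931).

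RD19a (BnaA01g05320D), a drought-responsive cysteine protease, rose in both, from 3.39, 3.74 and 4.04 to 74.9, 72.4 and 89.4 CPM in HX17 and from 5.13, 6.46 and 6.01 to 13.1, 15.7 and 14.8 CPM in HX58. HX17_FB lay above all other libraries. The difference was -3.10 ± 0.24 (SE, adjusted p = 3.49e-05). The probable carboxylesterase CXE18 (BnaC09g04840D) rose in HX17 from 0.454, 0.259 and 0.309 to 10.6, 7.03 and 6.15 CPM and fell in HX58 from 1.22, 1.47 and 2.18 to 0.284, 0.653 and 0.5602 CPM. Its difference of -6.23 ± 0.56 (SE, adjusted p = 8.86e-05) was -7.46 (adjusted p = 0.000314) with MA controls.

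Other negative genes fell in HX58 on freezing. DDPS2 (BnaCnng56890D), a dehydrodolichyl diphosphate synthase, fell in HX58 from 183, 149 and 209.7 to 0.265, 0.218 and 1.48 CPM and in HX17 from 178, 144 and 161 to 32.8, 49.4 and 36.3 CPM. The unfrozen groups overlapped and the frozen groups did not. The difference was -6.09 ± 0.70 (SE, adjusted p = 0.000332), and -5.91 (adjusted p = 0.00215) with MA controls. The homeobox factor HAT5 (BnaCnng05590D) fell in HX58 from 144, 88.5 and 109 to 3.28, 2.595 and 3.72 CPM, while HX17 was low throughout, at 1.33, 1.52 and 1.601 CPM in MB and 1.31, 1.99 and 1.596 CPM in FB, a difference of -5.28 ± 0.34 (SE, adjusted p = 1.23e-05), and -3.31 (adjusted p = 0.00762) with MA controls.

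Some large estimates rested on a group without reads. RADL3 (BnaA08g15280D), a small MYB-like protein, had 0 reads in HX17_MB and 3.87, 6.62 and 14.9 CPM in HX17_FB, at least 292-fold higher, against 2.24, 2.68 and 0.957 and 8.09, 5.68 and 2.26 CPM in HX58_MB and HX58_FB. Its call was lost in 8 of the 12 fits without a library, and with MA controls the fitted difference went from -10.09 to -2.27 (adjusted p = 0.279). The oleosin S2-2 locus BnaC02g37030D had 2.72, 1.58 and 2.303 CPM in HX17_MB and 0 reads in HX17_FB, at least 95.5-fold lower, while HX58 held 1.78, 0.802 and 1.76 CPM in MB and 1.46, 1.11 and 1.46 CPM in FB. Of the 946 genes, 24 had a group without reads, 19 of them positive.

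The interaction of variety with freezing after 14 days at 4° (FA against MA) is another treatment contrast, measured in other libraries, and there 135 of 58808 genes (0.230%) were called, 67 positive (0.114%) and 68 negative (0.116%). Of the 604 positive genes, 591 were tested there, and 448 (75.8%) had a positive estimate, against 55.3% of all genes that were positive under direct freezing. Of the 342 negative genes, 218 (63.7%) had a negative estimate, against 51.9%. Calls in the same direction numbered 10 of the positive and 10 of the negative genes, with 1 negative gene called in the opposite direction. The median estimates were 0.85 and -0.39 there, against 3.61 and -2.61 under direct freezing for the same genes.

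The called genes were spread over the genome. Coordinates are those of the deposited table, for which no source used here names a genome version. Of 27600 tested genes of the A subgenome 1.81% were called (315 positive, 185 negative), and of 31444 of the C subgenome 1.41% (287 positive, 157 negative). Over the 19 assembled chromosomes the share lay between 1.21% and 2.36%. No run of 3 or more neighbouring tested genes was called in the same direction. A Swiss-Prot match was given for 782 of the 946 called genes.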

How the data were processed

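Of 36 leaf RNA libraries from both varieties, 12 entered the comparison. The authors aligned reads with HISAT2 2.0.4 and counted reads per gene with HTSeq 0.9.1, as their notes state, and the deposited table holds raw read counts and FPKM for 106340 genes. No source used here names the strandedness or the genome version. The counts were tested, and the deposited FPKM values were read but no result rests on them. All per-sample columns matched a label.

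Counts were fitted in edgeR 4.0.16 (R 4.3.3) with TMM scaling, filterByExpr (minimum count 10, minimum total 15) and a quasi-likelihood test in 1 model of 4 groups, with Benjamini-Hochberg adjustment over the 59265 genes kept. The thresholds of 2-fold and 0.005 follow the study. The SE of a log2 difference is its size over the root of F. CPM shown for single libraries used TMM factors of all 36 libraries. A fold against a group at 0 used a floor of 3 counts over its 3 libraries, and ratios on 1 to 3 counts have exact 95% intervals. Intervals and floors cover counting error only. The scripts were tested on simulated data.

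Named genes were those with the largest differences in each direction at a mean of 1 CPM or more, those with the smallest p, those with opposite responses, the 2 genes of smallest p in each list and the SnRK2E, CBF, COR15 and TIFY10A loci. The comparison, the gene lists and this rule were chosen with earlier results of these data known. The rule's choice of genes with at most 3 counts in 1 variety found none. Other loci and list members named beside them were chosen after their values were seen. Alternatives were DESeq2 1.42.0, other scaling, no filter, a looser threshold, a replicate block, all 36 libraries, thinned counts, MA controls and leaving out each library. The comparison of MB with MA was added after seeing the data. No sequences are printed, because the tables used here hold none for these loci.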

Additional observations from a re-analysis of the deposited data

Results flagged for a closer look

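The response to direct freezing differed between the varieties by the interaction test for 946 genes, and the response to freezing after acclimation for 135 genes. Among the genes chosen by the naming rule 52 passed this test, 34 with a positive difference (HX58 minus HX17, log2) and 18 with a negative one. Other list members named by locus in the report also passed it. The negative ones were ABAH2 (BnaC04g40260D), PYL1 (BnaC09g19620D), LOX3 (BnaA09g45010D) and CDF5 (BnaA07g24230D). The positive ones were the ZAT12 loci BnaA03g09250D, BnaA02g06790D and BnaA10g12780D. The values below are fitted differences, and those of genes with a group at or near 0 reads depend on the prior count.

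Among regulators, positive differences were 12.50 for ERF104 (BnaC07g31350D), 5.11 for ERF11 (BnaA07g08440D), 6.06 for ZAT12 (BnaA02g06780D), 4.89 for ZAT10 (BnaA08g18790D), 4.26 for WRKY53 (BnaC01g15640D) and 3.91 for WRKY33 (BnaC03g21360D). They were 4.92 and 3.22 for NAC94 (BnaA09g08940D and BnaA06g34140D), 4.74 for C3H47 (BnaC08g26910D), 4.71 for APRR5 (BnaC09g04380D), 3.73 for HSFB2A (BnaC03g52080D), 3.16 for MYC2 (BnaC08g07580D) and 2.61 for HSFA8 (BnaC06g29140D). The calcium sensors CML45 (BnaA02g29610D) and PBP1 (BnaC01g19450D) had 9.49 and 6.26, and the ubiquitin ligase XBAT34 (BnaAnng26330D) had 8.33.

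Among wall enzymes, they were 14.50 and 9.03 for XTH18 (BnaC01g08120D and BnaC07g42520D), 4.78 for the expansin-like EXLA2 (BnaCnng78620D), and 11.16, 10.94 and 8.94 for GATL10 (BnaA06g31630D, BnaC07g25020D and BnaC09g01660D). The ABA hydroxylase loci BnaCnng57040D and BnaC02g31560D had 9.86 and 6.72. The oleosin BnaC02g37030D had 9.48, Lea5 (BnaC03g73200D) 6.03 and the senescence-associated esterase SAG101 (BnaA03g05130D) 4.88.

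Smaller positive differences were 3.48 and 2.32 for the glucanases BnaA01g02650D and BnaA08g25120D, 3.33 for the superoxide dismutase BnaA06g26040D, 3.19 for the sphingolipid desaturase SLD1 (BnaA07g38190D) and 2.22 for the photosystem II protein BnaC01g32320D. The ribosomal proteins RPL8-3 (BnaC03g62040D) and RPL28-2 (BnaA08g13440D) had 2.42 and 2.05.

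Negative differences were -10.09 for RADL3 (BnaA08g15280D), -6.23 for CXE18 (BnaC09g04840D), -6.09 for DDPS2 (BnaCnng56890D), -6.06 for ERF070 (BnaCnng17120D), -5.81 for an amylase and subtilisin inhibitor (BnaA07g30760D) and -5.79 for a receptor-like kinase (BnaC02g12220D). They were -5.28 for HAT5 (BnaCnng05590D), -4.91 for the chloroplast ribosomal protein BnaA09g12200D, -3.18 for SKI2 (BnaA06g17730D), -3.10 for RD19a (BnaA01g05320D) and -3.09 for LOX3 (BnaC08g37760D). The auxin genes GH3.17 (BnaC03g05840D) and SAUR36 (BnaC04g22040D) had -2.77 and -2.40. The last were -2.43 for SPS4 (BnaC02g29300D), -2.31 for KIN2 (BnaAnng37980D), -2.19 for COR15B (BnaA03g56650D), -2.04 for RVE2 (BnaC06g12130D) and -1.98 for BAM3 (BnaA03g42940D).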

How the results depend on the processing

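Of the 946 calls, all 946 were also called in the same direction by DESeq2, which called 3767 genes (2254 positive, 1513 negative). An adjusted p under 0.05 without the fold limit, which holds all these calls by construction, gave 5436 (52.8% positive, against 63.8%). Without a filter on low counts the number was 1466. RLE scaling gave 939 (906 shared), thinning to the lowest library total 939 and a model of all 36 libraries 1096. The looser threshold gave 29941 genes for the response of HX58, 28834 for that of HX17, 17958 for HX58 against HX17 in MB, 18198 in FB and 29 runs of neighbouring genes. For the interaction after acclimation (135), DESeq2 gave 1643, no filter 440 and the looser threshold 1593.

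With MA controls the interaction gave 161 calls, 50.3% of them positive, and 4 named genes changed sign: BnaC07g25020D to -1.64, BnaC02g31560D to -0.14, BnaC03g21360D to -0.32 and BnaC03g05840D to 0.18. No other alternative reversed a called named gene. The cause was not tested.

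Libraries of the same replicate number shared no strong deviation. The 18 correlations of deviations from group means lay between -0.18 and 0.13, with 3 over 0.1. Whether libraries of a number were paired cannot be told from these values. A replicate block gave 600 calls for the interaction (428 positive, 172 negative, 558 shared) and 96 after acclimation.

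Leaving out 1 library at a time gave 391 to 1104 calls for the interaction, 13460 to 17655 for the response of HX58, 11068 to 15796 for that of HX17, 6693 to 9395 for HX58 against HX17 in MB, 5982 to 8280 in FB and 52 to 187 for the interaction after acclimation. With 3 libraries a group, the unadjusted p was under 0.05 for 14796 genes, so that many estimates were past that limit and short of a call. A library left out leaves its group with 2, and the share of positive calls then reached 77.6%.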

Other observations

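Outside the gene lists, several proteins were called at most of their loci. These were chosen after their values were seen and carry no test beyond that of each gene. A probable protein phosphatase 2C 25 was positive at 6 of 7 tested loci, the zinc finger protein C3H29 and the factor GATA8 each at 5 of 6, and SARD1, which activates salicylic acid synthesis genes in Arabidopsis, at all 4. XBAT34, a putative ubiquitin ligase, was positive at 4 of 6 loci and the immune regulator EDS1B at 3 of 5. ATP sulfurylase 1, the first enzyme of sulfate assimilation, was negative at all 3 of its tested loci. Counting members of the gene lists as well, 35 proteins had 3 or more positive loci and 5 had 3 or more negative ones. Some of these were called at few of their loci, as MYB44 (3 positive of 25 tested) and PHR1-LIKE 1 (3 negative of 32).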
